A study of Rattus norvegicus with 8 samples.

Results

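The genes described here encode the enzymes of the tricarboxylic acid (TCA) cycle, the pyruvate dehydrogenase (PDH) complex with its kinases and phosphatases, and the carriers and transaminases that link the cycle to the cytosol. They were taken from a list of 35 symbols, of which 33 were represented on the array by at least 1 probe set that the platform annotation pairs with that symbol alone, among 14217 such genes in all. Dlat and Fh, the remaining 2 symbols, were not analysed here. A gene with more than 1 probe set is given by its brightest over all 8 arrays. Each of the 33 passed the filter on dim probe sets.

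The series measured total RNA from mucosa scraped off the distal colon of rats, with Affymetrix rat expression arrays. The control group (4 arrays) ate RM3 [E] FG SQC, a rat breeder diet, for 11 weeks, and the quercetin group (4 arrays) ate a diet with 10 g of quercetin, a plant flavonol, per kg for the same time. The labels give no strain, sex or age. Nor do they say that the arrays come from different rats, and the spread between the 8 samples, on which every p-value rests, may be technical. Scrapings mix cell types, and in such bulk RNA fewer cells of a type and less RNA per cell cannot be told apart.

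Pyruvate enters mitochondria through a carrier and is turned by the PDH complex into acetyl-CoA, which the cycle oxidises. PDH kinases switch the complex off by phosphorylation and PDH phosphatases switch it back on. Colonocytes are known for oxidising butyrate, which feeds acetyl-CoA into the cycle without passing through PDH.

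No gene of the TCA cycle or of PDH control differed between the diets past the threshold. Of 33 genes, 0 had an adjusted p under 0.05 in limma, a linear model fitted to all probe sets at once, and the smallest adjusted p was 0.277. Over all 10266 genes tested, 0.00974% passed. At an unadjusted p under 0.05 there were 2 of the 33 genes, Suclg2 and Pdk2, which is 6.06% of them against 9.39% of all genes tested. The groups did not overlap for 2 of the 33, Suclg2 and Slc25a1, again 6.06%, against 5.84% of all genes. In this fit both shares lie near or below the background. The share with an unadjusted p under 0.05 in limma moved when 1 array was left out. Without control array 2 it was 18.2% (6 of 33), against 10.8% of all probe sets tested. Without control array 4 it was 3.03%, against 9.33%. The log2 fold change (quercetin minus control, of log2(signal + 16)) was above 0 for 23 of the 33 genes, with a median of 0.11, and above 0 for 55.9% of all genes tested, with a median of 0.04. These 2 values for the members rested on single arrays: without control array 2 the count was 18 and the median 0.02, without control array 1 they were 28 and 0.18, and without quercetin array 1 they were 21 and 0.01. Leaving out 1 array moved the fold change by over 1.5 times or turned its sign for 29 of the 33 genes, namely for 24 genes without control array 1 and 24 without control array 2, among others. Dlst, Pdha1, Pdk2 and Suclg2 did not move so far without any single array. A fold change near 0 meets this rule easily, and the share over all genes tested was not computed. The 95% interval of the fold change lay between -1 and 1 for 31 of the 33, and between -0.5 and 0.5 for 18. Over all 10266 genes tested these counts were 8772 and 3005. The median SE was 0.166 over the members and 0.197 over all genes tested.

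**Figure D1:**
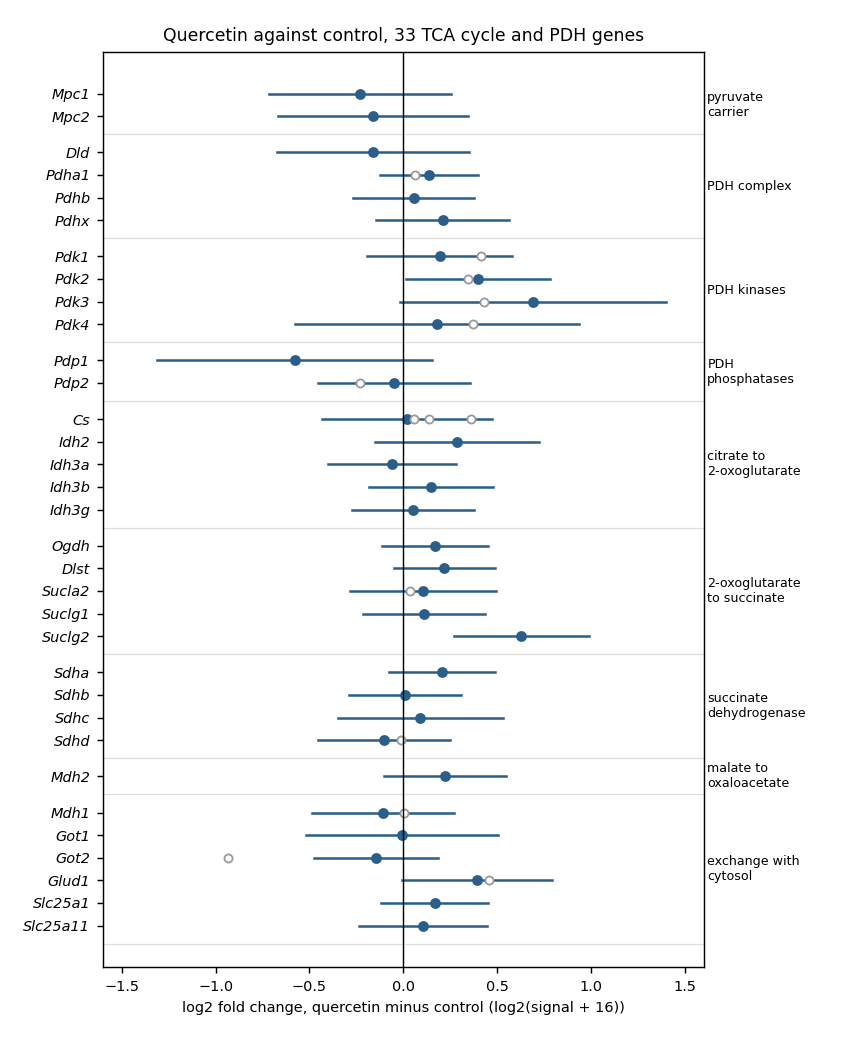
Log2 fold change of each gene on the horizontal axis (quercetin minus control, of log2(signal + 16)), with genes grouped by role. Filled points are the brightest probe set with its 95% interval from limma, open points the other probe sets of the gene. Suclg2 (0.63) and Pdk2 (0.40) are the genes whose interval excludes 0 on the brightest probe set, and the open point of Got2 lies far from its filled point, at -0.93.

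Suclg2, the beta subunit of the GTP-forming succinyl-CoA ligase, had the smallest p of the list. Its signals were 2504, 1685, 3032 and 2638 on control arrays 1 to 4 and 4034, 3898, 3361 and 3695 on quercetin arrays 1 to 4. All 4 quercetin arrays lay above all 4 control arrays, and control array 2 was the lowest. Group means were 2465 ± 566 for control and 3747 ± 293 for quercetin (SD, n = 4 each). The log2 fold change was 0.63 (SE 0.166, 95% interval 0.27 to 0.99, limma adjusted p = 0.277), or 1.55 times. Without control arrays 1 and 2 it was 0.40 (adjusted p = 0.594), and 0.46 (adjusted p = 0.338) without control array 2 alone.

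The same step of the cycle can be run by a form of the ligase that makes ATP, whose beta subunit is Sucla2. Both forms share the alpha subunit Suclg1. The Sucla2 signals were 1328, 765, 1196 and 955 in control and 1420, 1031, 1006 and 1064 in quercetin, and the groups overlapped. Its log2 fold change was 0.11 (SE 0.181, 95% interval -0.28 to 0.50, adjusted p = 0.875). Suclg1 had signals of 2219, 1538, 2057 and 1880 in control and 2563, 1932, 1841 and 1963 in quercetin, with a log2 fold change of 0.11 (SE 0.151, 95% interval -0.22 to 0.43), and 0.004 without quercetin array 1. Sucla2 and Suclg1 were highest on quercetin array 1 and lowest on control array 2, and so was Suclg2.

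**Figure D2:**
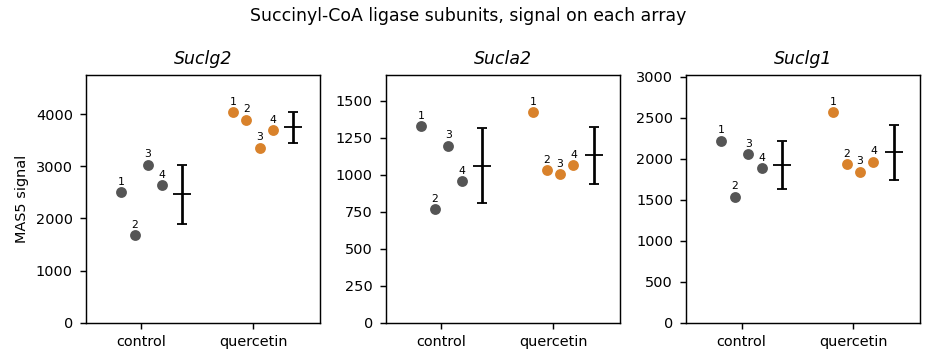
MAS5 signal (vertical axis, linear, from 0) of the 3 succinyl-CoA ligase subunits on each array, with array numbers beside the points and the mean ± SD of each group (n = 4) to the right of its points. The groups are apart for Suclg2, where the lowest quercetin array (3361) is above the highest control array (3032), and overlap for Sucla2 and Suclg1.

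Taking subunits against each other within an array removes what moves both alike. The log2 value of Suclg2 minus that of Sucla2 was 0.91, 1.12, 1.33 and 1.45 on control arrays 1 to 4 and 1.496, 1.90, 1.72 and 1.78 on quercetin arrays 1 to 4. The groups did not overlap, and their means differed by 0.52. Suclg2 minus Suclg1 also differed by 0.52, with control arrays between 0.13 and 0.56 and quercetin arrays between 0.65 and 1.01. Sucla2 minus Suclg1 differed by -0.003. These subunit pairs were chosen after the values of Suclg2 were seen and the differences were not tested. With log2 fold changes of 0.11 for both Sucla2 and Suclg1, the differences restate the fold change of Suclg2 and are not separate evidence. How often other pairs of genes do not overlap was not computed. Nor do the differences show that a subunit kept its level.

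The 250 bases before the annotated start of Suclg2 and Sucla2 are shown because their fold changes differed in size, a difference that was not tested. Those of Pdk2 are shown because it had the next smallest p. They come from RefSeq (build GRCr8), read 5′ to 3′ on the strand of the gene, and span chr4:129893938-129894187 (minus strand), chr15:55161644-55161893 (plus strand) and chr10:80483913-80484162 (minus strand). Capitals mark CCAAT boxes, the motif bound by NF-Y, on either strand.
Suclg2: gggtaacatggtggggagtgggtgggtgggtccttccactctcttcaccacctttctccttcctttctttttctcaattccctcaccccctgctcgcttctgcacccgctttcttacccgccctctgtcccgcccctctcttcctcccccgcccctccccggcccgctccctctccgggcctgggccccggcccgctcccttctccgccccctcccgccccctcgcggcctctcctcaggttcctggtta
Sucla2: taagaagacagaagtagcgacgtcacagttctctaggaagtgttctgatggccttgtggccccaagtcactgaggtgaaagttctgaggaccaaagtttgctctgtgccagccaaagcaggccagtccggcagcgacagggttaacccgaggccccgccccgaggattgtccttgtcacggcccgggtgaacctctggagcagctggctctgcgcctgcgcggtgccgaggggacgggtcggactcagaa
Pdk2: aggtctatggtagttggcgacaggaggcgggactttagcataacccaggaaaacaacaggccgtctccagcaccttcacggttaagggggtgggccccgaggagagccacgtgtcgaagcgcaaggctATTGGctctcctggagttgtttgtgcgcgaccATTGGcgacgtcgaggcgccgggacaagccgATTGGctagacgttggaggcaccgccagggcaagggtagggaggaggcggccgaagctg

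The Pdk2 stretch holds 3 CCAAT boxes, beginning 122, 90 and 59 bases before the start, and the Suclg2 and Sucla2 stretches hold 0. The Suclg2 stretch is 67.2% G and C and the Sucla2 stretch 60.4%, against medians of 60% over the member promoters and 52% over all promoters. The member promoters and all promoters were not matched for base content or for expression. A CCAAT box, searched on both strands, was present in 17 of the 30 members with a promoter in the table (56.7%) and in 34.3% of all 27457 promoters of this length. Among the kinases it was present before Pdk2, Pdk3 and Pdk4. The ETS motif CCGGAAGT was found before Dlst and Mdh2, 6.67% of the members against 3.29% of all. The nuclear receptor direct repeat spaced by 1 base (DR1), the extended site of ERR receptors (TCAAGGTCA) and the palindromic NRF1 motif were in 0 of the 30, and in 0.0546%, 0.368% and 0.849% of all promoters. Motifs this rare are likely to be in 0 of any 30 promoters, so these counts tell nothing about the members. A match is a run of letters and was not tied to binding, and Idh3a, Pdp1 and Pdp2 are not in the table.

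The 4 PDH kinases each had a log2 fold change above 0, as had 55.9% of all genes tested. All 8 of their probe sets, 2 for each gene, were above 0, but probe sets of 1 gene read the same RNA. The 2 phosphatases had log2 fold changes below 0 on all 3 probe sets. On the brightest probe set the sign turned in 1 of the alternative fits described below for Pdk4, and in 3 for Pdp2. Of the 11 kinase and phosphatase probe sets 9 passed the filter on dim signals and were tested, and 0 of the 9 passed the threshold. The dimmer probe sets of Pdk2 (mean signals of 4.43 in control and 9.95 in quercetin) and Pdk4 (21.5 and 31.4) did not pass the filter. Pdk2, a widely expressed kinase, had signals of 170, 143, 139 and 131 in control and 176, 198, 251 and 168 in quercetin. Quercetin array 3 was the highest, and quercetin array 4 lay just below control array 1, the only overlap. The log2 fold change was 0.40 (SE 0.177, 95% interval 0.01 to 0.78, adjusted p = 0.445).

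Pdk3 had the largest log2 fold change of the list, 0.69 (SE 0.328, adjusted p = 0.477), and a wide spread. Its signals were 122, 279, 349 and 169 in control and 527, 496, 215 and 276 in quercetin. Quercetin arrays 1 and 2 were above every control array, while quercetin arrays 3 and 4 lay within the control range. Without control array 1 its value was 0.45. Pdk1, a kinase also known as a target of hypoxia signalling, had signals of 124, 197, 160 and 180 in control and 175, 175, 218 and 192 in quercetin, with a log2 fold change of 0.19 (SE 0.178, adjusted p = 0.742), and 0.08 without control array 1. On the dimmer Pdk1 probe set it was 0.41 (SE 0.176, adjusted p = 0.429).

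Pdk4, which is known to be induced by fasting and by PPAR ligands, was dim in this tissue. It had signals of 51.2, 99.2, 91.2 and 60.5 in control and 166, 90.2, 32.8 and 93.8 in quercetin, so that the quercetin group held both the highest and the lowest array. The log2 fold change was 0.18 (SE 0.350, 95% interval -0.58 to 0.93, adjusted p = 0.897), and -0.11 without quercetin array 1.

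**Figure D3:**
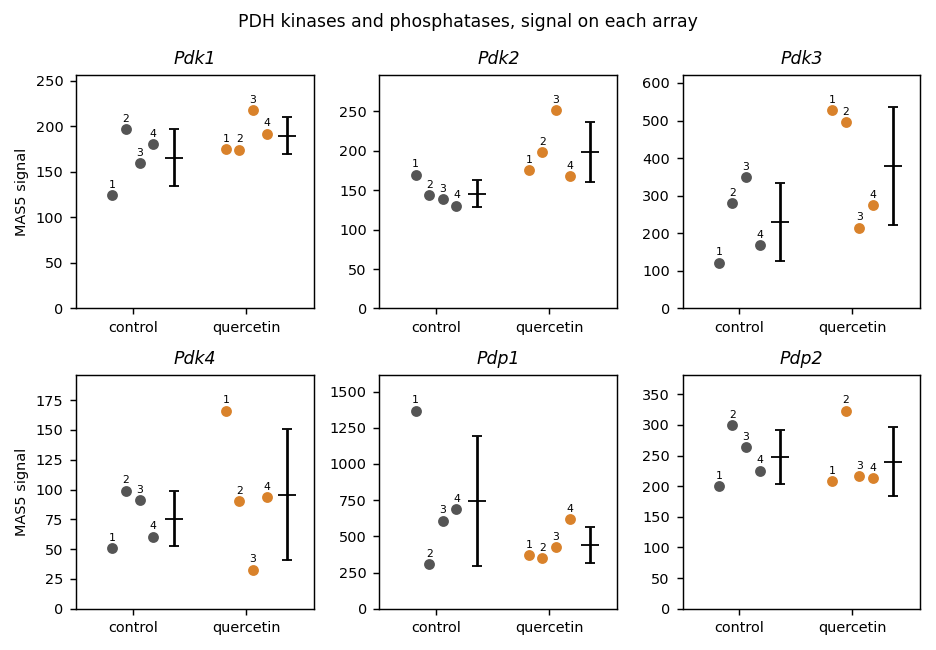
MAS5 signal (vertical axis, linear, from 0) of the 4 PDH kinases and 2 PDH phosphatases on each array, brightest probe set each, with array numbers beside the points and the mean ± SD of each group (n = 4) to the right of its points. The groups overlap in every panel, and Pdp1 on control array 1 (1369) stands far above its other control arrays (307 to 688).

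Pdp1, the calcium-sensitive PDH phosphatase, had the lowest log2 fold change of the list, -0.58 (SE 0.339, 95% interval -1.31 to 0.15, adjusted p = 0.581). Its signals were 1369, 307, 608 and 688 in control and 371, 352, 423 and 617 in quercetin. The control group held both the highest and the lowest array, numbers 1 and 2. The value was -0.23 without control array 1, -0.93 without control array 2 (adjusted p = 0.338) and -0.57 without both. Pdp2, the other phosphatase, had signals of 200, 300, 264 and 226 in control and 208, 324, 216 and 213 in quercetin, with a log2 fold change of -0.05 (SE 0.187). On the dimmer Pdp2 probe set it was -0.23 (SE 0.161).

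The mitochondrial pyruvate carrier is made of Mpc1 and Mpc2, and both had log2 fold changes below 0, -0.23 (SE 0.225) and -0.16 (SE 0.234). Mpc1 signals ran from 1860 to 4469 in control and from 1937 to 2993 in quercetin, and those of Mpc2 from 1225 to 2953 and from 1245 to 2061. In either gene the 2 lowest arrays were control array 2 and quercetin array 2. Without control array 1 the value of Mpc1 was -0.04, and without control array 2 it was -0.46.

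In the PDH complex itself, Pdha1 and Pdhb, the subunits of the decarboxylase, had log2 fold changes of 0.14 (SE 0.121, 95% interval -0.12 to 0.40) and 0.06 (SE 0.150, 95% interval -0.27 to 0.38). Pdhx, which tethers the shared dehydrogenase subunit, had 0.21 (SE 0.163), with control signals of 247 to 371 and quercetin signals of 323 to 407, and 0.09 without control array 2. Dld, that dehydrogenase subunit, which the 2-oxoglutarate dehydrogenase complex uses as well, had -0.16 (SE 0.237) and signals of 458 to 1019 in control.

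Citrate synthase (Cs), which joins acetyl-CoA to oxaloacetate, had a log2 fold change of 0.02 (SE 0.210, 95% interval -0.43 to 0.47). Its mean signal was 3955 ± 1362 in control and 3860 ± 497 in quercetin (SD, n = 4 each). The dimmer Cs probe sets had 0.06 (SE 0.186), 0.14 (SE 0.558) and 0.36 (SE 0.324). The 3 subunits of the NAD-dependent isocitrate dehydrogenase lay close to 0, Idh3a at -0.06 (SE 0.158), Idh3b at 0.15 (SE 0.153; 0.03 without control array 2) and Idh3g at 0.05 (SE 0.150). Idh2, the mitochondrial enzyme that makes NADPH from the same substrate, had 0.29 (SE 0.202) and was lowest on control array 1, at 796 against 1139 to 1649 on the other control arrays. Without that array the value of Idh2 was 0.09.

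In the 2-oxoglutarate dehydrogenase complex, Ogdh, the decarboxylase, had a log2 fold change of 0.17 (SE 0.131, 95% interval -0.11 to 0.45), and 0.08 without control array 2. Dlst, the succinyl-transferring core, had 0.22 (SE 0.124, 95% interval -0.05 to 0.49, adjusted p = 0.564), and its quercetin arrays lay closely together, at 1195 to 1276 against 961 to 1238 in control. Succinate dehydrogenase, which is also complex II of the respiratory chain, had values of 0.21 (SE 0.131; 0.12 without control array 2) for Sdha, 0.01 (SE 0.138) for Sdhb, 0.09 (SE 0.203) for Sdhc and -0.10 (SE 0.163) for Sdhd. Sdhb, the iron-sulphur subunit, had a 95% interval of -0.29 to 0.31, and its mean signal was 4764 ± 502 in control and 4813 ± 733 in quercetin (SD, n = 4 each). Mdh2, the malate dehydrogenase of the cycle, had 0.22 (SE 0.150), and 0.10 without control array 2.

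The genes that exchange carbon and reducing power with the cytosol were mixed. Glud1, glutamate dehydrogenase, had signals of 876 to 1489 in control and 1261 to 1911 in quercetin, with a log2 fold change of 0.39 (SE 0.185, adjusted p = 0.476). Its dimmer probe set had 0.45 (SE 0.193, adjusted p = 0.428), and without control array 1, the lowest, the value on the brightest was 0.24. Slc25a1, the citrate carrier that exports citrate for lipid synthesis, had signals of 602, 615, 617 and 605 in control and 623, 809, 625 and 705 in quercetin. The groups did not overlap, but quercetin arrays 1 and 3 lay just above the control group, and the log2 fold change was 0.17 (SE 0.132, adjusted p = 0.695), or 0.09 without quercetin array 2.

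The malate-aspartate shuttle carries electrons from cytosolic NADH into mitochondria. Among its genes, log2 fold changes were -0.11 (SE 0.175) for Mdh1 and -0.005 (SE 0.237) for Got1. Got2 had -0.14 (SE 0.153), and -0.01 without control array 1. Slc25a11, the oxoglutarate carrier, had 0.10 (SE 0.159). Other genes of the shuttle are Mdh2 (0.22) and, outside the 33, Slc25a12 (0.21, SE 0.163) and Slc25a13 (0.05, SE 0.171). The 2 probe sets of Got2, the mitochondrial aspartate aminotransferase, disagreed in size. The bright one had signals of 1805 to 2733 in control and 1639 to 2170 in quercetin, which overlap. The dim one had 156, 214, 159 and 179 in control and 33.6, 86.4, 118 and 133 in quercetin, with no overlap, and a log2 fold change of -0.93 (SE 0.300, adjusted p = 0.327). Over the 44 member probe sets that passed the filter, 5 had an unadjusted p under 0.05 (11.4%), against 10.8% of all probe sets tested. Of the 12 members with several probe sets, 11 had 1 sign on all of them, and Mdh1 had both.

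With all 8 arrays, most of these genes varied more among the control arrays than among the quercetin arrays. The median SD over the 33 was 0.29 on the log2 scale in control and 0.21 in quercetin, and the SD was larger in control for 26 of the 33 (78.8%, against 60.7% of all genes tested). Between the 2 control arrays other than 1 and 2 the median SD was 0.10, and 0.16 over all genes tested. These values rest on 2 arrays and cannot be set against the quercetin SD, which rests on 4. Control arrays 1 and 2 were often the extremes in these same data, so a lower SD without them decides nothing. Whether the larger control spread rested on those arrays was not tested. Control array 2 was the lowest of the 8 arrays for 21 of the 33 (63.6%, against 20.3% of all genes tested), and its mean deviation from the 8-array mean of each gene was -0.31. Control array 1 was the highest for 12 of the 33 (36.4%, against 15.6%), and 11 genes (33.3%, against 5.33%) had both extremes there: Cs, Dld, Got1, Idh3a, Mdh1, Mpc1, Mpc2, Pdp1, Sdhc, Sdhd and Slc25a11. After quantile normalisation 7 genes had both (21.2%, against 5.42%). Control array 1 was the lowest array for Glud1, Idh2, Pdk1, Pdk3, Pdp2 and Slc25a1, 18.2% of the members against 23.1% of all genes. Quercetin array 1 was the highest for 15 of the 33 (45.5%, against 15.5%), with a mean deviation of 0.19. This count was 11 (33.3%, against 16.7%) after quantile normalisation and 15 (45.5%, against 30.4%) after median centring.

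**Figure D4:**
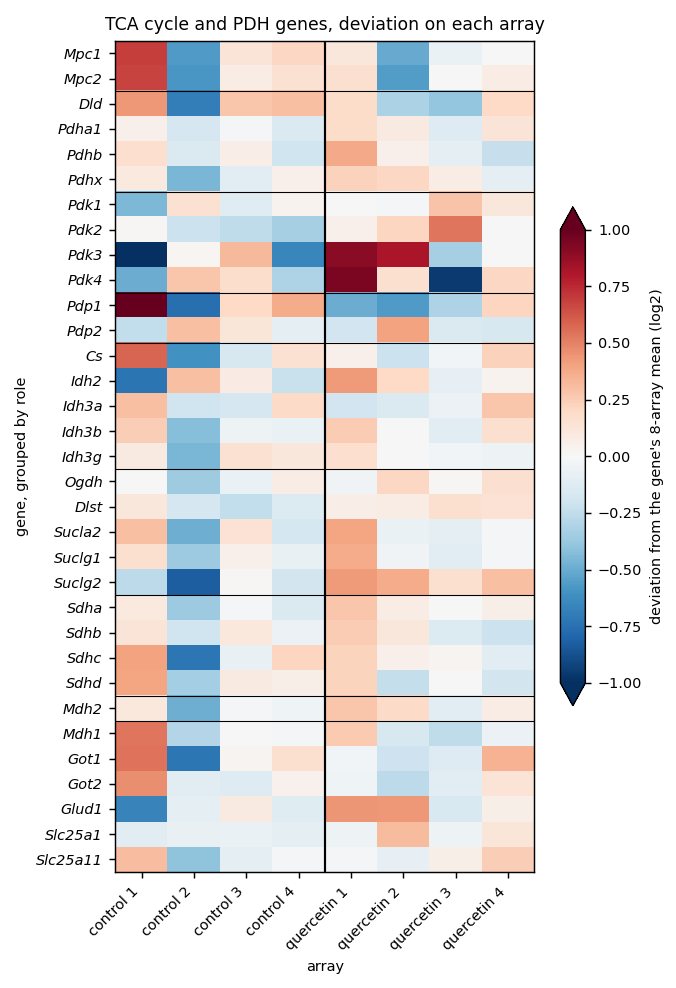
Deviation of each gene (rows, grouped by role) from its mean over the 8 arrays (columns), on the log2 scale, red above and blue below the mean, with colours saturating at -1 and 1. Control array 2 is blue in most rows (mean -0.31), and control array 1 is red for Mpc1, Mpc2, Pdp1, Cs and Mdh1 and blue for Pdk3, Idh2 and Glud1.

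The same arrays differed in RNA measures and in markers. The ratio of 3′ to 5′ signal of GAPDH, which rises when RNA is shortened or incompletely copied, was 3.79 on control array 2 and 1.58 to 2.36 on the others, and was lowest on control array 1. The same ratio of actin was also highest on control array 2 (21.4, against 6.79 to 12.4) but lowest on quercetin array 4, while that of hexokinase was highest on quercetin array 4 (6.05) and 2.76 on control array 2. With the GAPDH ratio as a covariate 0 of the 33 passed and 7 had an unadjusted p under 0.05 (21.2%, against 13.9% of all probe sets tested). The 6 proliferation markers all had log2 fold changes above 0, with a median of 0.72. Of the 6, 3 had an unadjusted p under 0.05 (50%, against 9.39% of all genes tested) and 0 an adjusted p under 0.05. Cdk1, the mitotic kinase, had 0.92 (SE 0.249, adjusted p = 0.279) with no overlap, which 5.84% of all genes had. Each of the 6 was lowest on control array 1, and fits without that array are not given for them. Their summed signal was 1814 on control array 1 and 3497 to 4380 on the other controls. In the quercetin group it ran from 3767 to 6204 and was highest on array 1. Krt20, a keratin of mature colonocytes, was 11182 on control array 1 and 4067 on control array 2, against 5761 to 7241 on the others. Other colonocyte markers were mixed on control arrays 1 and 2. Cdh17 (11062 and 7065) and Vil1 (6217 and 4397) were also higher on array 1. Slc26a3 was nearly equal (11239 and 11198), and Car1 was lower on array 1 (17459 and 18632). The part of RNA quality and of the balance of crypt and surface cells in the spread of the TCA cycle genes was not tested.

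Of 13 colonocyte markers, all 13 passed the filter and 0 had an unadjusted p under 0.05, and their summed signal was 139706 to 158444 in control and 132608 to 147808 in quercetin. Sums are set only against the same list in the other group, since signals of different probe sets have no common scale. Of 8 smooth muscle markers 4 passed the filter (sums of 513 to 641 in control and 520 to 613 in quercetin), and so did 4 of the 6 leukocyte markers found (239 to 348 and 319 to 489) and 2 of 3 hepatocyte markers (401 to 522 and 308 to 614). Of 6 fibroblast markers 2 passed, and 1 of 3 found each for endothelium, nerve and skeletal muscle. Sums of goblet cell (56040 to 71719 and 54047 to 67604) and enteroendocrine markers (1308 to 2439 and 1575 to 2969) overlapped between the groups, as did those of every other list here. Besides the proliferation markers, Chga of the enteroendocrine list (0.81, SE 0.281, adjusted p = 0.344) and Lyz2 of the leukocyte list (0.57, SE 0.211, adjusted p = 0.363) had an unadjusted p under 0.05. The part of these cell types in the values of the TCA cycle genes was not tested.

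Of 55 other genes of pyruvate, glutamine and lipoate metabolism and of mitochondrial carriers, 49 were found and 44 passed the filter. Of these, 0 had an adjusted p under 0.05 and 5 an unadjusted p under 0.05 (2 higher and 3 lower), 11.4% against 9.39% of all genes, and their median log2 fold change was 0.08. The higher ones were Slc25a10, the dicarboxylate carrier (0.52), and Bckdha, of branched-chain keto acid oxidation (0.73). The lower ones were Sirt4, a mitochondrial sirtuin (-0.76), Oxct1, which activates ketone bodies with succinyl-CoA (-0.60), and Pck1, which makes phosphoenolpyruvate from oxaloacetate (-0.33). The SE of these 5 ran from 0.135 to 0.292 and their adjusted p from 0.342 to 0.404. Oxct1 uses the same succinyl-CoA as the ligase of Suclg2. Its signals were 2604, 1653, 1418 and 2121 in control and 1149, 836, 1506 and 1683 in quercetin, which overlap.

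Of 20 transcription factors and coactivators tied to mitochondrial genes, 18 passed the filter, 0 had an adjusted p under 0.05 and 2 an unadjusted p under 0.05, which is 11.1% against 9.39% of all genes and near the background. Esrrg, an orphan nuclear receptor that drives oxidative genes in muscle and heart, had signals of 1207, 1457, 1317 and 1400 in control and 814, 611, 1113 and 902 in quercetin, with no overlap, and a log2 fold change of -0.66 (SE 0.169, adjusted p = 0.261). Myc had 0.86 (SE 0.354, adjusted p = 0.411) and was lowest on control array 1. Ppargc1a, the coactivator of mitochondrial biogenesis, had -0.02 (SE 0.168) and Esrra -0.03 (SE 0.140). Ppara, the fatty acid sensor that induces Pdk4, did not pass the filter, with mean signals of 2.68 in control and 3.43 in quercetin.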

How the data were processed

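Total RNA from 8 samples of rat distal colon mucosa was hybridised to Affymetrix arrays. The authors deposited 1 linear intensity for every probe set on each array, computed with MAS5 per the submitters' processing notes. The sources used here give no further steps and no build. In the deposited intensity table the mean with 2% trimmed at either end was 200.1 on all arrays, so a change shared by most transcripts would not show.

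The 57 array controls among the 31099 probe sets stayed out. Signals became log2(signal + 16), which understates changes of dim probe sets, and the upper 60% by mean over all arrays (18625) were tested. Array medians differed by under 0.5 on the log2 scale, so nothing was normalised further. Quercetin was compared with control in limma 3.58.1 (R 4.3.3; lmFit, eBayes with trend, two-sided, Benjamini-Hochberg over all 18625). The steps were tested on simulated data. Precision is limited by having 8 arrays: over the 33 genes the median SE was 0.166.

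Members, lists and alternatives were chosen with earlier results of these data known. The naming rule gives all members, per-array values for those with p under 0.05 or no overlap and for every PDH kinase and phosphatase, and of the 2 other pathway lists those with p under 0.05. Values of Sucla2, Suclg1, the dim Got2 probe set, Oxct1, Krt20, Cdk1, Chga and Lyz2 were added after they were seen. So were those of the dimmer Cs probe sets, Slc25a12, Slc25a13, Slc26a3, Car1, Cdh17, Vil1, Ppara, Ppargc1a and Esrra. All 33 gene identifiers matched RefSeq (GRCr8). Alternatives were fits without each array or without control arrays 1 and 2, a pseudocount of 1 or 64, another filter (none or the upper 40%), another scaling (quantile or median), array weights, the sample number as a block, eBayes without trend, averaged probe sets per gene, and the GAPDH ratio as covariate.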

Additional observations from a re-analysis of the deposited data

Results flagged for a closer look

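Groups of 4 arrays were searched for a single array apart from the rest, for 33 genes, 3 subunit differences and the mean of all members under each diet. Of these 74 groups 4 had one, and about 3.7 arise by chance. The value is the distance to the closest other array divided by the range of the group. Control array 2 lay low for Idh3g (0.900) and Dld (0.857). Quercetin array 1 lay high for Sucla2 (0.838), and quercetin array 2 lay high for Pdp2 (0.918).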

How the results depend on the processing

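In all 20 alternatives 0 of the 33 genes passed limma's adjusted threshold, and so did 0 genes of the 2 other lists; the smallest adjusted p of a member ran from 0.134 to 0.594. Suclg2 kept its sign and an unadjusted p under 0.05 in all 20 (0.40 to 0.74), and Pdk2 had an unadjusted p under 0.05 in 13 of 20. The mean log2 fold change of the members was 0.10, and 0.01 to 0.16 when 1 array was left out. The count of all probe sets past the threshold was 2. It was 3 with a pseudocount of 64, 1 with a pseudocount of 1, quantile normalisation, median centring, no filter, eBayes without trend or the replicate block, 0 without control arrays 1 and 2, and 1 to 2 without 1 array. The sample numbers were not taken to pair the arrays: same-numbered arrays had correlations of deviations from their group means of -0.151 to 0.163, and under the replicate block 1 member had an unadjusted p under 0.05. Of the 33 members 19 kept their sign throughout. Signs turned for Cs (-0.069) and Sdhb (-0.017) with the GAPDH ratio as covariate; for Idh3g (-0.056), Sdhb (-0.049) and Sdhc (-0.031) with array weights; for Idh3g (-0.11), Sdhb (-0.021) and Sdhc (-0.022) without control arrays 1 and 2; and for Got1 (0.045) and Pdp2 (0.0026) with median centring. The cause was not tested. With 1 array left out, values ran from -0.18 to 0.22 for Cs, -0.25 to 0.18 for Got1, -0.16 to 0.030 for Idh3a, -0.095 to 0.11 for Idh3g, -0.22 to 0.054 for Mdh1, -0.38 to 0.039 for Mpc2, -0.061 to 0.14 for Pdhb, -0.11 to 0.53 for Pdk4, -0.19 to 0.045 for Pdp2, -0.075 to 0.082 for Sdhb, -0.13 to 0.24 for Sdhc, -0.23 to 0.013 for Sdhd, -0.011 to 0.23 for Slc25a11 and -0.038 to 0.22 for Sucla2. Control array 2 was lowest for 16 of the 33 after quantile normalisation (22.1% of all genes) and for 26 after median centring (32.1%). Pdk4 did not pass the filter with the upper 40% of probe sets.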
